A study of Homo sapiens with 4 samples.

Results

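MYC and PVT1 are neighbouring genes on chromosome 8, described here with the CTCF peaks around them. The peaks were selected by position alone: every peak of the list whose centre lay between positions 126500000 and 129500000 of chromosome 8 (hg38) was taken, 36 of 42462 in all. The study mapped CTCF by ChIP-seq, in which DNA bound by a protein is pulled down with an antibody and sequenced. It used MDA-MB-435, an established human cell line that the labels call melanoma. Of its 4 samples, 2 were asynchronous cells with a CTCF antibody, and 2 were nocodazole-arrested mitotic cells with an antibody to pT431 CTCF, a phosphorylated form. The list used here came from asynchronous replicate 1 (cells in mixed cell cycle stages, with no treatment labelled), so no groups are compared and nothing below was checked against a replicate. A list of peaks gives no expression level, so cell identity could not be checked against marker genes.

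CTCF is a zinc finger protein that binds DNA directly, halts the cohesin ring as it extrudes loops, and thereby anchors chromatin loops and insulates domains. CTCF was first described as a factor that binds the promoter of chicken MYC. MYC encodes a transcription factor of growth and proliferation, and in many tissues it is driven by enhancers scattered over the gene-poor DNA on both sides of it. PVT1 is a long noncoding RNA gene just downstream of MYC, transcribed in the same direction. It hosts several microRNAs, and its promoter can compete with that of MYC for enhancers.

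The region as a whole was neither dense nor strong in CTCF peaks. It held 12.0 peaks per Mb (exact Poisson 95% interval 8.41 to 16.6), and this interval took in the 13.6 per Mb of chromosome 8 and the 15.3 per Mb of the autosomes. Peak strength is given in normalised tags, the reads at a peak scaled to a library of 10000000 reads. The 36 peaks ran from 7.81 to 51.5 normalised tags with a median of 14.6, against a median of 20 over all 42388 peaks of chromosomes 1 to 22 and X. By the caller's score, 13 of the 36 (36.1%, Clopper-Pearson 95% interval 20.8 to 53.8) were at or above the median of all peaks, against 50.1% of all peaks. None of the 36 reached the top score decile, which held 10.1% of all peaks, and a count of 0 of 36 allows a share of up to 9.74% (Clopper-Pearson 95% interval). The region's peaks were thus mostly of modest height, and the strongest ones stood at MYC and at 1 remote place. Intervals cover counting error only, and neighbouring peaks of 1 library are not replicates.

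**Figure D1:**
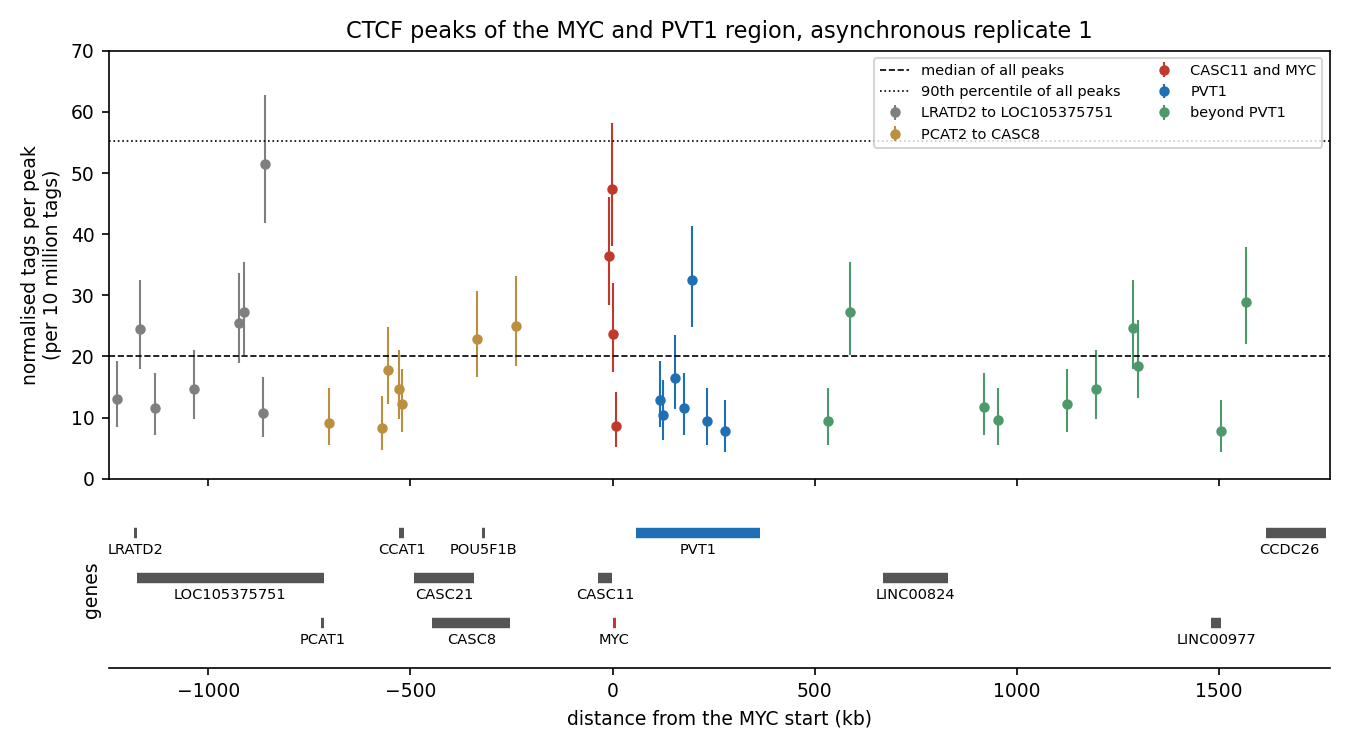
Each point is 1 CTCF peak with its normalised tags (vertical axis, per 10000000 tags) against its distance from the MYC start (horizontal axis, kb); bars are exact Poisson 95% intervals, and the annotated genes are drawn below. The 2 strongest peaks, at 51.5 and 47.4 normalised tags, both stay under the dotted 90th percentile of all peaks at 55.2.

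MYC (chromosome 8, 127735434 to 127742951, 7.52 kb) had a peak on each side and a peak within. The strongest was the one before its annotated start, called the promoter-side peak here for its position only. This peak (127733928 to 127734276) was centred 1332 bp below the MYC start, outside MYC and 135 bp from the end of CASC11, a noncoding RNA gene that lies next to MYC. It held 47.4 normalised tags (38.1 to 58.2), the second strongest of the 36, with a focus ratio of 0.916. The focus ratio is the caller's measure of sharpness: it is the fraction of tags that fall where a single binding point would put them.

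The RefSeq promoters used here hold none for MYC, so no peak was assigned to a promoter of MYC. The peak inside MYC (127736047 to 127736395) lay 787 bp from the gene's annotated start. It held 23.7 normalised tags (17.5 to 31.9), where the promoter-side peak 2119 bp away held 2 times as many, and the 2 intervals did not overlap. Its focus ratio was 0.741, at the 10.4th percentile of all peaks, and it stood only 5.04-fold over its surroundings, where the promoter-side peak stood 13.1-fold over them. The peak past the gene (127742996 to 127743344) was centred 219 bp beyond the MYC end and held 8.59 normalised tags (5.16 to 14.2), with a focus ratio of 0.75. Along MYC, each peak was therefore weaker than the one before it, and the 3 intervals were separate from one another. These 3 peaks lay close to one another, and the 10 kb surroundings of each can include tags of the others.

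Within 1 kb of an end MYC had 2 peaks, where 28.4% of 19817 protein-coding genes had any. The higher of them held 23.7 normalised tags, and 20 of the 5634 other protein-coding genes with such a peak (0.355%) had exactly that value as their highest, the alphabetically first being ANKRD30BL, BPGM and CFAP184. A further peak (127725738 to 127726086) lay inside CASC11, 9522 bp below the MYC start. It held 36.4 normalised tags (28.4 to 46.0), the third strongest of the 36, at a focus ratio of 0.901. Of the 3 strongest peaks of the region, 2 were thus in the 10 kb below MYC, and both were sharp. On the far side of that pair the DNA was empty of called peaks for 229 kb.

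PVT1 (127794524 to 128101256, 307 kb) held 7 peaks, but none at either end. Its start lay 51.6 kb beyond MYC, and the nearest peak to it was the one just past MYC, 51.4 kb away. The first peak inside PVT1 lay 57.8 kb from the start, which left 109 kb without a called peak between MYC and the body of PVT1. The last peak lay 86.4 kb before the PVT1 end, and the next one beyond the gene was 168 kb past that end. The called peaks of PVT1 thus lay in the middle of the gene.

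In order along PVT1 the 7 peaks held 12.8, 10.4, 16.4, 11.5, 32.5, 9.37 and 7.81 normalised tags. The strong one (127931496 to 127931844, 24.7 to 41.4) was the only one at or above the median score of all peaks, and its interval overlapped that of none of the other 6. The intervals of the 6 weaker peaks overlapped one another, so their order is not resolved at this depth. The strong peak lay 137 kb into the gene, 14.9 kb from LINC02912, formerly TMEM75, a long noncoding RNA gene of 2.165 kb within PVT1. Of the PVT1-hosted microRNA genes, MIR1204 lay 52.8 kb from any peak, MIR1205 8.77 kb, MIR1206 5.95 kb and MIR1207 34.2 kb, and none held a peak. MIR1208, annotated beyond the PVT1 end, was 119 kb from one.

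Several PVT1 peaks were near the caller's limit of 4-fold over the surrounding 10 kb. Their folds in order were 5.67, 6.36, 8.54, 4.04, 16.1, 4.96 and 4.03. The peaks at 4.04 and 4.03 were called with almost nothing to spare, and slightly lower values would have left them out of the list. The median fold was 5.67 in PVT1 and 13.6 over all peaks.

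By number of peaks for its length, PVT1 was in the upper part of long genes. It had 2.28 peaks per 100 kb (0.918 to 4.70), rank 152 of 1398 genes of 200 to 500 kb, of which 10.8% had more, and the median was 1.17. Among the 74 such genes of chromosome 8 it ranked 6th, and PEBP4 had the most at 3.51 (1.52 to 6.92). Among the 308 long noncoding RNA genes of that length PVT1 ranked 18th. The genes nearest to it in density were NEK10, SEPTIN9 and ARHGAP42, each at 2.28 peaks per 100 kb. In height the order was different: the median PVT1 peak held 11.5 normalised tags, against 53.9 in SEPTIN9, 25.4 in NEK10 and 16.7 in ARHGAP42. The PVT1 interval takes in the long-gene median of 1.17, so its density was not told apart from that median. Its density also rested on weak peaks: 0.326 per 100 kb were at or above the median score, and 0.652 per 100 kb had a local fold of at least 8.

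**Figure D2:**
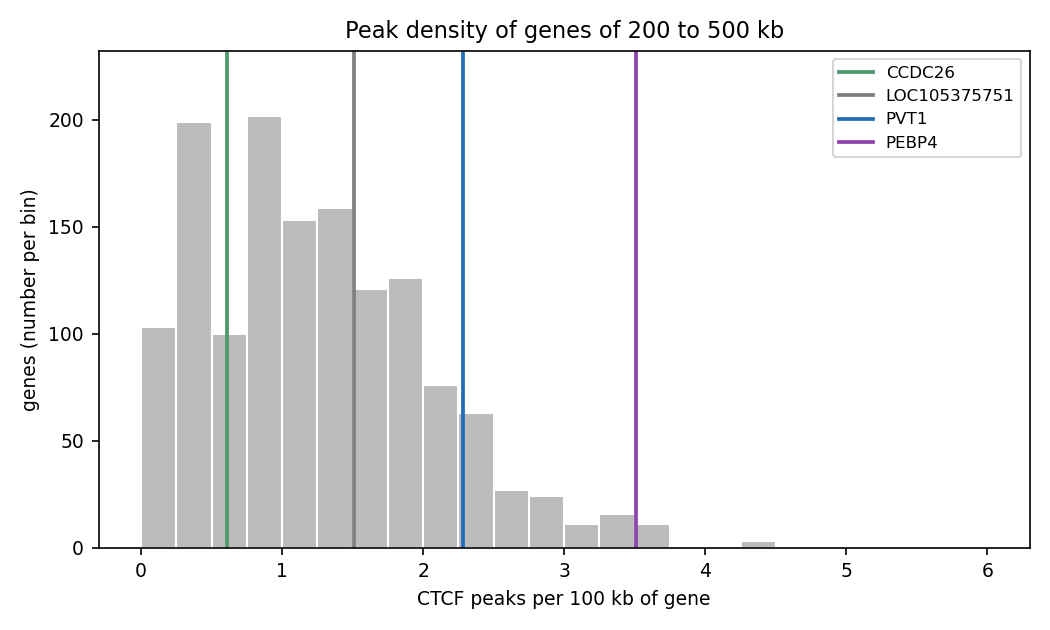
The bars count the 1398 genes of 200 to 500 kb (vertical axis) by their CTCF peaks per 100 kb (horizontal axis), and the lines mark PVT1, CCDC26, LOC105375751 and PEBP4. PVT1 at 2.28 lies to the right of the median of 1.17, and CCDC26 at 0.609 to the left.

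From just below the MYC start through PVT1 the peaks stood on a raised local background. Local background is the number of normalised tags that the surrounding 10 kb would give in the width of 1 peak. It was 3.62 at the promoter-side peak, 4.70 at the peak inside MYC and 1.83 at the peak past MYC. In PVT1 it was 2.26, 1.64, 1.92, 2.85, 2.02, 1.89 and 1.94 in order. Over these 10 peaks the median was 1.98, and at the other 26 peaks of the region it was 1.32, from 0.942 to 1.71. The lowest of the 10 was 1.64, and 2 of the other 26 reached that value. Of the 36 peaks, 7 were above the upper quartile of all peaks, a level that 25.0% of all peaks exceeded, and all 7 were among these 10. The stretch was picked out after its values were seen.

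The neighbouring peaks on both sides had lower values. The CASC11 peak, 8.19 kb before the promoter-side peak, had a local background of 1.32. The first peak beyond PVT1, 255 kb after the last one inside, had 1.30, and no peak lies between to show where the level changes. The 5 PVT1 peaks with no other called peak within 10 kb had local backgrounds from 1.89 to 2.85. Among 481 genes of 200 to 500 kb with at least 5 peaks, PVT1's median of 1.94 ranked 55th from the top, and the median over these genes was 1.43. Of the genes nearest to PVT1 in density, SEPTIN9 had a median of 2.07, ARHGAP42 1.94 and NEK10 1.31. PEBP4, the densest on chromosome 8, had 1.95, so a median at this level was not particular to PVT1. No control library is named in the file headers, and what raised the local background here was not tested.

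**Figure D3:**
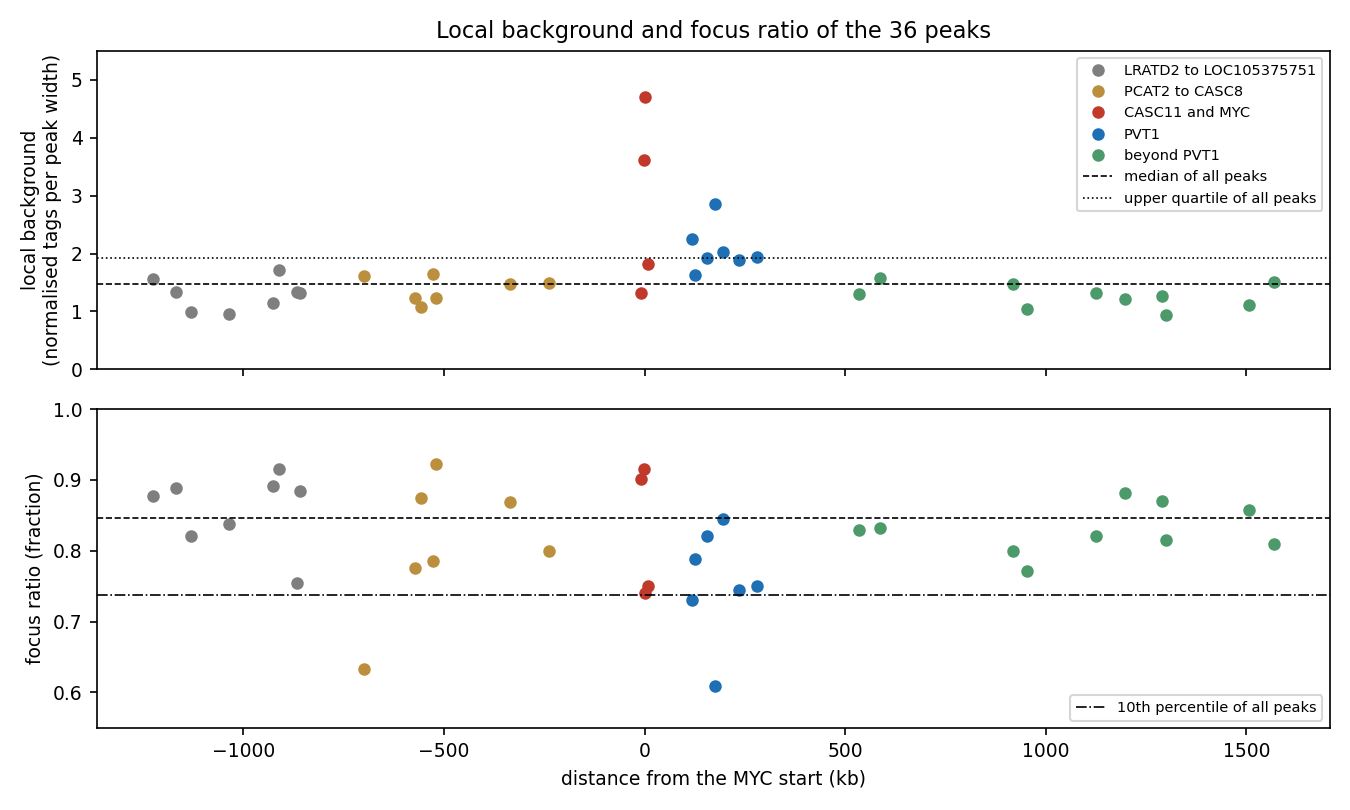
The upper panel plots local background (normalised tags per peak width) and the lower panel the focus ratio (fraction) of the 36 peaks against distance from the MYC start (kb). The points above the dotted upper quartile of all peaks belong to MYC and PVT1, and the lowest focus ratio, 0.609, is a PVT1 peak.

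Most PVT1 peaks had lower focus ratios than the middle peak of like score. Their focus ratios were 0.730, 0.788, 0.821, 0.609, 0.845, 0.745 and 0.75 in order along the gene. The lowest, 0.609, was under all but 0.503% of all peaks, and the strong peak was at the 48.6th percentile. The median was 0.75, the 7th lowest among the 481 long genes with at least 5 peaks, whose median was 0.844. Weak peaks tend to have lower focus ratios, so each was set beside all peaks of its own score decile. In PVT1 6 of 7 were under the median of their decile, where 49.4% of all peaks were, and over the whole region 18 of 36 were. When the peaks of the same decile were also held to a local background within 10% of the peak's own, 3 of the 7 were under the median. Most PVT1 peaks thus had a low focus ratio on a raised local background, and the part of one in the other was not tested. The 2 traits did not always go together. The strong PVT1 peak had 0.845 at a background of 2.02, and the promoter-side MYC peak 0.916 at 3.62. A peak below MYC (127034971 to 127035319) had 0.633 at 1.61, a background under every value in PVT1.

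At MYC the picture was mixed. The promoter-side peak, at 0.916, was above the 0.874 of the 229 peaks of its decile with a like background, and the CASC11 peak, at 0.901, was above 0.885. The peak inside MYC, at 0.741, was below the 0.823 of its 46 like peaks and under their 10th percentile of 0.754. The peak past MYC, at 0.75, was close to the 0.739 of its like peaks. By focus ratio, the 2 peaks before the gene were thus sharp and the peak within the gene was not. The width of binding was not measured.

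**Figure D4:**
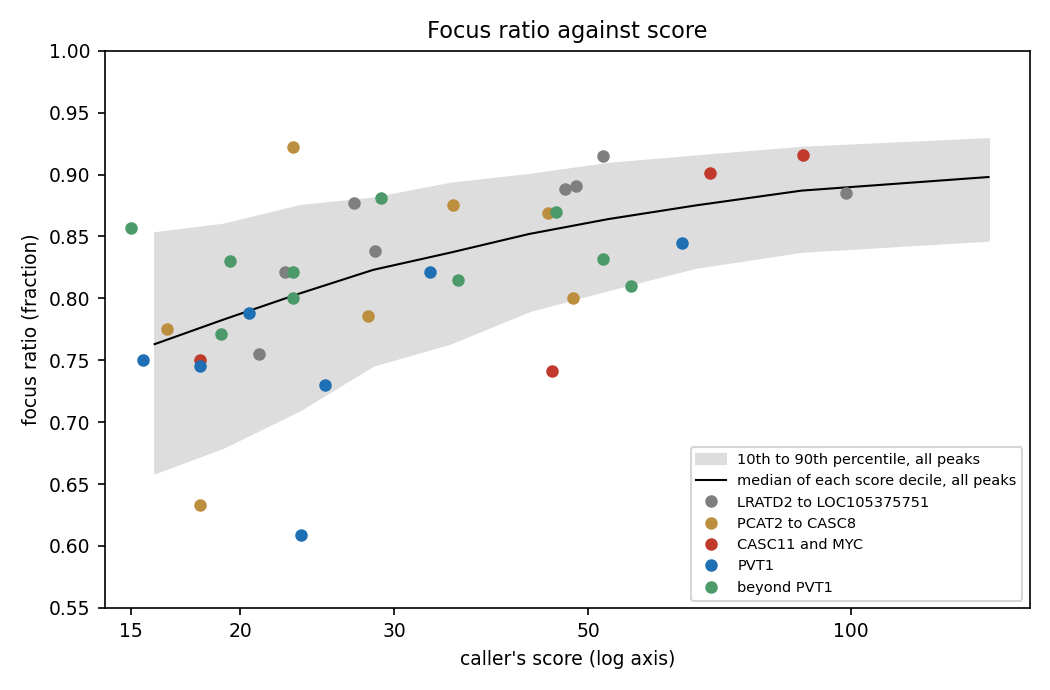
Focus ratio (vertical axis, fraction) is plotted against the caller's score (horizontal log axis) for the 36 peaks, over the median (line) and the 10th to 90th percentile (grey) of all peaks by score decile. The PVT1 points lie mostly on or under the line, and the promoter-side MYC peak, with a score of 88 and a focus ratio of 0.916, lies above it.

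Below MYC, the long stretch of noncoding RNA genes carried 15 peaks, among them the strongest of the region. That peak (126876599 to 126876947) held 51.5 normalised tags (41.9 to 62.7), 39.1-fold over its surroundings, and its interval overlapped that of only 2 others. It lay 859 kb below the MYC start and 318 kb from LRATD2, the nearest protein-coding gene, and inside LOC105375751, a noncoding RNA gene of 463 kb. LOC105375751 held 7 peaks, as many as PVT1, at 1.51 per 100 kb (0.608 to 3.11). Those peaks differed at the median, which was 24.5 normalised tags with a focus ratio of 0.885 and a local background of 1.32. In PVT1 the medians were 11.5, 0.75 and 1.94. Single peaks overlapped in each measure, with 10.7 to 51.5 normalised tags in LOC105375751 and 7.81 to 32.5 in PVT1. With the same number of peaks, LOC105375751 thus had the higher and sharper ones at the median.

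Between LOC105375751 and CASC11 lie noncoding RNA genes that have been studied at cancer risk variants, among them PCAT2, PRNCR1, CASC19, CCAT1, CASC21, CASC8 and CCAT2. These 680 kb held 7 peaks, from 8.33 to 25 normalised tags. CCAT1, a colon cancer-associated transcript, had a peak of 14.6 (9.69 to 21.1) 222 bp outside an end, and another of 12.2 inside with the highest focus ratio of the region, 0.922. CCAT2 and the longer CASC8 shared a peak of 22.9 (16.6 to 30.8). The peak nearest to MYC on this side (127496371 to 127496719) held 25 normalised tags, outside any gene. POU5F1B, a retrogene copy of the pluripotency factor gene POU5F1, had no peak within 12.6 kb. Peaks here were mostly low, with a median of 14.6 normalised tags against 20 over all peaks. Where 50.1% of all peaks were at or above the median score, 2 of these 7 were. Their density was 10.3 per Mb (4.14 to 21.2), an interval that took in the 13.6 per Mb of chromosome 8. PCAT2, PRNCR1 and CASC21 each lay whole within a gap of over 100 kb, as did PCAT1, which lies inside LOC105375751.

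Of the 18 genes of the region's list other than MYC and PVT1, 5 had a peak inside or within 1 kb of an end: CCAT1, CCAT2, CASC8 and CASC11 within this region, and CCDC26, whose 2 peaks lay beyond position 129500000. By the same measure, 31.6% of all 58415 genes had a peak. The other 13 had none: LRATD2, PCAT1, PCAT2, PRNCR1, CASC19, CASC21, POU5F1B, LINC02912 and the 5 microRNA genes MIR1204 to MIR1208. Of all 41 genes that overlap the region, 12 had such a peak, near the share of all genes. These were MYC and 11 of the 24 long noncoding RNA genes, where 30.6% of all 17904 long noncoding RNA genes had one. Besides MYC, PVT1 and the listed genes, the 12 included LOC105375750, LOC105375751, LOC105375753, LINC00977 and LOC124902022. Within 1 kb of an end alone, 4 of the 24 had a peak, where 14.3% of all long noncoding RNA genes did. Overlapping genes can count the same peak, so these shares are a description only.

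Beyond PVT1 peaks were fewer for the length than on chromosome 8 as a whole, which had 13.6 per Mb. The density was close to the median of 7.49 per Mb for whole gene-poor stretches, described below. It covers only a part of such a stretch, however, and the whole stretch from MYC to GSDMC held 11.7 per Mb. The 1.40 Mb from the PVT1 end to position 129500000 held 10 peaks, or 7.15 per Mb (3.43 to 13.1), from 7.81 to 28.9 normalised tags with a median of 13.4. The strongest (129303370 to 129303718) held 28.9 (22.02 to 37.9), and the next (128322691 to 128323039) held 27.3. A weak peak of 7.81 lay 112 bp from the end of LINC00977. All 10 had local backgrounds of 1.57 or less, under every value in PVT1. LINC00824, a noncoding RNA gene of 159 kb, lay whole within the largest peak-free gap of the region.

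Spacing was uneven. Neighbouring peaks in the region lay a median of 45.4 kb apart, from 2.12 to 331 kb, against a median of 42.7 kb on chromosome 8 and 35.1 kb over all peaks. Of the 35 gaps, 10 were over 100 kb (18.9% of all gaps were) and 6 were under 10 kb (18.6% of all gaps were). The largest gaps were 331 kb around LINC00824, 255 kb across the PVT1 end and MIR1208, and 229 kb between the risk RNA genes and CASC11. The 331 kb gap was larger than 97.7% of all gaps. The peaks at and just below MYC thus formed a group of 4 within 17.3 kb, with 229 kb free of called peaks before it and 109 kb after it.

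The 2 sides of MYC held similar numbers of peaks but unlike ones. The 1 Mb below the MYC start held 13 peaks (6.92 to 22.2) and the 1 Mb above the MYC end held 12 (6.20 to 21.0). The median peak held 22.9 normalised tags below and 10.95 above, with median focus ratios of 0.875 and 0.780. At or above the median score of all peaks were 7 of 13 below and 2 of 12 above. The lower side thus held the stronger and sharper peaks in this library, and the difference was not tested, since peaks of 1 library are not replicates.

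Gene-poor stretches near MYC were set beside others of their kind. Neighbouring protein-coding genes were at least 500 kb apart in 696 places, of which 674 held a peak, and among these the median was 7.49 peaks per Mb. The stretch from MYC to GSDMC, 1962 kb long and home of PVT1, held 23 peaks or 11.7 per Mb (7.43 to 17.6), rank 125 of 674. The stretch from LRATD2 to POU5F1B, 855 kb long and ending short of MYC, held 13 or 15.2 per Mb (8.10 to 26.0), rank 50. Both were above the upper quartile of 10.4, and both intervals took in that quartile. The 45 such stretches of chromosome 8 had a median of 8.98 and an upper quartile of 12.4. The MYC to GSDMC stretch was below that quartile of its own chromosome. The adjoining stretch from TRIB1 to LRATD2, which reaches into the region, was denser than both at 17.1 per Mb (10.3 to 26.6), rank 30. Of the 48 windows of 3 Mb that chromosome 8 was divided into, this region ranked 31st by number of peaks. Only 5 of them held 3 protein-coding genes or fewer, as this one does, and those 5 ranged from 13 to 36 peaks, this region having the 36.

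The other genes of the MYC family were set beside it. The 3 Mb around MYCN, the family member of neural tumours, held 35 peaks and the 3 Mb around MYCL 79, against 40 in the 3 Mb centred on MYC. The MYC and MYCN windows had like densities, at 13.3 per Mb (9.53 to 18.2) and 11.7 (8.13 to 16.2), and the MYCL window was denser at 26.3 (20.9 to 32.8), with an interval apart from both. In the top score decile were 0 peaks around MYC, 4 around MYCN and 10 around MYCL. Each of the 3 genes had a peak before its start. That of MYCN held 42.7 normalised tags (33.9 to 53.0) at 672 bp from its start, that of MYCL 48.9 (39.5 to 59.9) at 417 bp, and that of MYC 47.4 (38.1 to 58.2) at 1332 bp. These 3 intervals overlapped, so the peaks were not told apart in height. Local background was 1.54 at MYCN and 2.35 at MYCL, both under the 3.62 at MYC. The 10 kb around that MYC peak can include tags of the peak inside MYC. Among the related genes described next, the peak nearest to an end of MGA had 5.81. The highest of the rest, at MLX, was 3.05.

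MYC acts as a dimer with MAX, and a network of related factors competes for MAX or for the same DNA. Of 13 genes of this network, 4 (30.8%, 9.09 to 61.4) had a peak within 1 kb of an end, a share close to the 28.4% of all protein-coding genes. These were MYC, MYCN, MYCL and MXD1, whose product represses MYC targets with MAX, at 14.6 normalised tags (9.69 to 21.1) 537 bp from its start. MAX itself had a peak of 26.8 inside, 14.05 kb from its nearer end. MXI1 had a peak of 12 at 1.26 kb and MNT one of 52.8 at 1.34 kb, just outside the window. MXD3, MXD4, MLX, MLXIP, MLXIPL and MGA, the remaining repressors, partners and MLX-binding factors, had their nearest peak to an end at 1.84 to 13.99 kb.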

How the data were processed

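The 1 peak list analysed, of asynchronous replicate 1, was called by the authors with HOMER findPeaks (factor style, no control named), per the file headers: fragment length 164 bp, at most 1 tag per position, false discovery rate 0.001 (15 tags), 4-fold over the surrounding 10 kb, local p 1e-04. The submitters' processing notes name Bowtie2, HOMER and hg38. Tool versions were not given in the sources used here. The deposited tag signal is scaled to 10000000 tags. The deposited focus ratio is a fraction between 0 and 1, the peak score is the authors' caller's own, and the deposited fold over the local region and clonal fold are ratios. The deposited p-value, from the authors' caller, was not used. Depth was 19210460 tags, of which 11.66% lay in peaks, and in the region score and tags differed by at most 3.06 tags.

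Local background was computed as normalised tags divided by the local fold. Peaks were placed by their centres. Gene positions came from a RefSeq table of GRCh38.p14 (58415 genes on chromosomes 1 to 22 and X). Genes of scaffolds listed under a chromosome's name were left out. All 18 listed genes of the region and 13 network genes matched, 1 by an older symbol. The table gives no exons, and strands came from RefSeq promoters, which hold none for MYC or PVT1, whose direction is background knowledge. Exonic or intronic position was not analysed. Chromosome length left out stretches of at least 1 Mb with neither gene nor peak.

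Tags have exact Poisson and shares Clopper-Pearson 95% intervals. No test was made, since 1 library has no replicates. Named were MYC, PVT1, the region's listed genes and those with a peak, the network, the densest gene of 200 to 500 kb on chromosome 8 and the 3 genes nearest to MYC in tags and to PVT1 in density. Members and lists were chosen with earlier results of these data known. The stretches below, at and beyond MYC, the score-decile comparison and the local-background match were chosen after the values were seen. Counting was tested on simulated peaks. Alternatives varied thresholds, bounds, windows and merging. The software was scipy 1.17.1, pandas 2.3.3, numpy 2.4.6 and matplotlib 3.10.9 under Python 3.11.15.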

Additional observations from a re-analysis of the deposited data

How the results depend on the processing

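Of 21 alternatives to 8 results, 13 stayed within 1.5 times the reported value. With peaks below the median score left out, the region held 4.33 peaks per Mb, its part outside protein-coding genes 4.02 per Mb, PVT1 0.326 per 100 kb and the MYC ends 1 peak. With a local fold of at least 8, chosen after seeing the data, PVT1 held 2 peaks or 0.652 per 100 kb. A stricter threshold leaves fewer peaks by construction. Within 500 bp of an end MYC had 1 peak and 2 network genes had any, where 20.6% of all protein-coding genes did, and within 5 kb 9 network genes did, where 53.2% of all protein-coding genes had one. No paired analysis was possible because only 1 sample was analysed. Weak peaks rest on as few as 15 tags, and a stretch without a called peak can hold binding under the threshold.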

Other observations

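The 500 kb on each side of the region differed in their peaks. From position 126000000 to 126500000 there were 8 peaks outside any gene, or 16 per Mb (6.91 to 31.5), from 7.81 to 33.3 normalised tags, with a median local background of 1.17. From position 129500000 to 130000000 there were 13, or 26 per Mb (13.8 to 44.5), with a median of 22.1 normalised tags and a local background of 1.59. CCDC26, a long noncoding RNA gene, held 2 of these, and the stronger (129535791 to 129536139) had 51.5 normalised tags (41.9 to 62.7), the same value as the strongest peak of the region.

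GSDMC, which encodes a pore-forming gasdermin and is the first protein-coding gene above MYC, held 4 peaks of 37.5, 15.6, 20.6 and 11.7 normalised tags. The local background of the second was 3.69, and its focus ratio 0.743, close to the 0.741 of the peak inside MYC. The first had a focus ratio of 0.914, close to the 0.916 of the promoter-side MYC peak.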
